A study of Mus musculus with 8 samples.

Results

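The genes described here are 10 core genes of cytokine signalling through Janus kinases: the kinase genes Jak1, Jak2, Jak3 and Tyk2, the transcription factor genes Stat3, Stat5a and Stat5b, and the feedback inhibitor genes Socs1, Socs3 and Cish. They were chosen by name, and all 10 were found among the 21885 named genes of the deposited table. The table holds RNA sequencing values for mouse skin, with 4 libraries after MC903 and 4 after MC903 plus phytic acid. MC903, or calcipotriol, is related to vitamin D and on mouse skin produces inflammation resembling atopic dermatitis, and phytic acid is inositol hexaphosphate, found in plant seeds. MC903 was given to both groups, so no group shows untreated skin, and the labels used here give no strain, age, dose or duration. Whether each library is a mouse of its own is not stated either, so the p-values reflect library-to-library spread alone, and that spread may be technical.

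Janus kinases sit on the inner side of cytokine receptors and are switched on when a cytokine brings receptor chains together. They phosphorylate the receptor and then STAT proteins, which enter the nucleus and bind DNA. SOCS proteins and CIS, the product of Cish, are induced by STATs and dampen the same receptors. In atopic dermatitis, interleukin 4, interleukin 13, interleukin 31 and thymic stromal lymphopoietin all act through this pathway, and inhibitors of Janus kinases are used as treatment.

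Of the feedback genes, Cish and Socs3 hold the letters TTCNNNGAA, the core of the element that STAT proteins bind, in the RefSeq window of 300 bases around their start (250 before and 50 after, build GRCm38.p6). The motif reads the same on both strands. These stretches are shown because both genes are known STAT targets whose RNA is described below, and capitals mark the matches.
Cish: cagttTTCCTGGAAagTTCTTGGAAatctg
Socs3: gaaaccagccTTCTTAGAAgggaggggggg
The Cish stretch lies on the plus strand at chr9:107296654-107296683, where GENCODE M21 has an exon and untranslated region of Cish, and its 2 matches span bases 1 to 9 and 12 to 20 from the RefSeq start. The Socs3 stretch lies on the minus strand at chr11:117969501-117969530, within the gene span and in no GENCODE exon, and its match runs from -154 to -146 relative to the RefSeq start. All 10 genes had a window. The 10 genes have 12 windows, of which 2 held the motif, as did 8.30% of all 32851 windows in the table. The matches say only that these letters are present.

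Values are FPKM (fragments per kilobase, scaled to the library total), which adjusts for gene length, so that levels can be compared between genes. Library totals recovered from the FPKM and exon lengths were 31676934 to 37639476 reads with MC903 and 38310033 to 42997271 with phytic acid. Each of the 9 tested members rested on at least 173 reads in every library, and Socs1 on as few as 26. A gene was tested if it reached 1 FPKM in at least 4 libraries, which left out Socs1, and log2 fold changes are differences of mean log2(FPKM + 1), positive where phytic acid was higher, a scale that understates changes of low genes. The limma test called a gene at an adjusted p (Benjamini-Hochberg over 12165 genes) under 0.05. Markers of keratinocytes were abundant in both groups, at a summed 1739 to 4536 FPKM for 8 suprabasal genes with MC903 and 4925 to 6601 with phytic acid. The sums of 8 basal keratinocyte genes lay the other way, at 4385 to 7942 FPKM with MC903 and 2632 to 3112 with phytic acid, with 1 called lower (Krt14) and 2 higher. Of 6 hair follicle markers 1 was tested and called lower (Tchh, a log2 fold change of -4.67). The sums of the 6 were 438 to 589 FPKM in MC903 replicates 1, 2 and 4 and 4137 in replicate 3. With phytic acid they were 18.0 to 25.6. Skeletal muscle markers were called higher in 8 of 9, with sums of 3628 to 4175 FPKM with MC903 and 7760 to 9211 with phytic acid. Langerhans and dendritic cell markers were higher in 6 of 6 tested, T cell markers in 4 of 6 and adipocyte markers in 3 of 7. Macrophage and monocyte markers were higher in 4 of 9, with sums of 632 to 1069 FPKM with MC903 and 1102 to 1564 with phytic acid. Of all genes tested, 14.2% were called higher and 11.6% lower. In bulk tissue, fewer cells of a type and less RNA per cell cannot be told apart, and the part of these cell types in the results below was not tested.

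Among the 10 genes, Stat5a changed with phytic acid and was higher. It was the 1 member called of 9 tested (11.1%), against 25.8% of all genes tested, and 14.2% were called higher. No member was called lower by limma on log2 values with all 8 libraries weighted equally, or by voom on recovered reads. Over all genes tested 11.6% were called lower, near the share that 1 of 9 makes (11.1%), so 0 of 9 is little contrast. At an unadjusted p under 0.05, Tyk2 and Stat5b were also higher and none was lower. One group lay wholly above the other for 1 of the 9 members, against 27.3% of all genes tested. The median log2 fold change of the 9 was 0.12, and 0.05 over all genes. The median size of change without regard to sign was 0.24 for the members and 0.22 over all genes. The plot of values by library shows this, with a clear gap between the groups for Stat5a alone. Weighting each library by its quality also called Tyk2 higher and Jak2 lower.

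**Figure D1:**
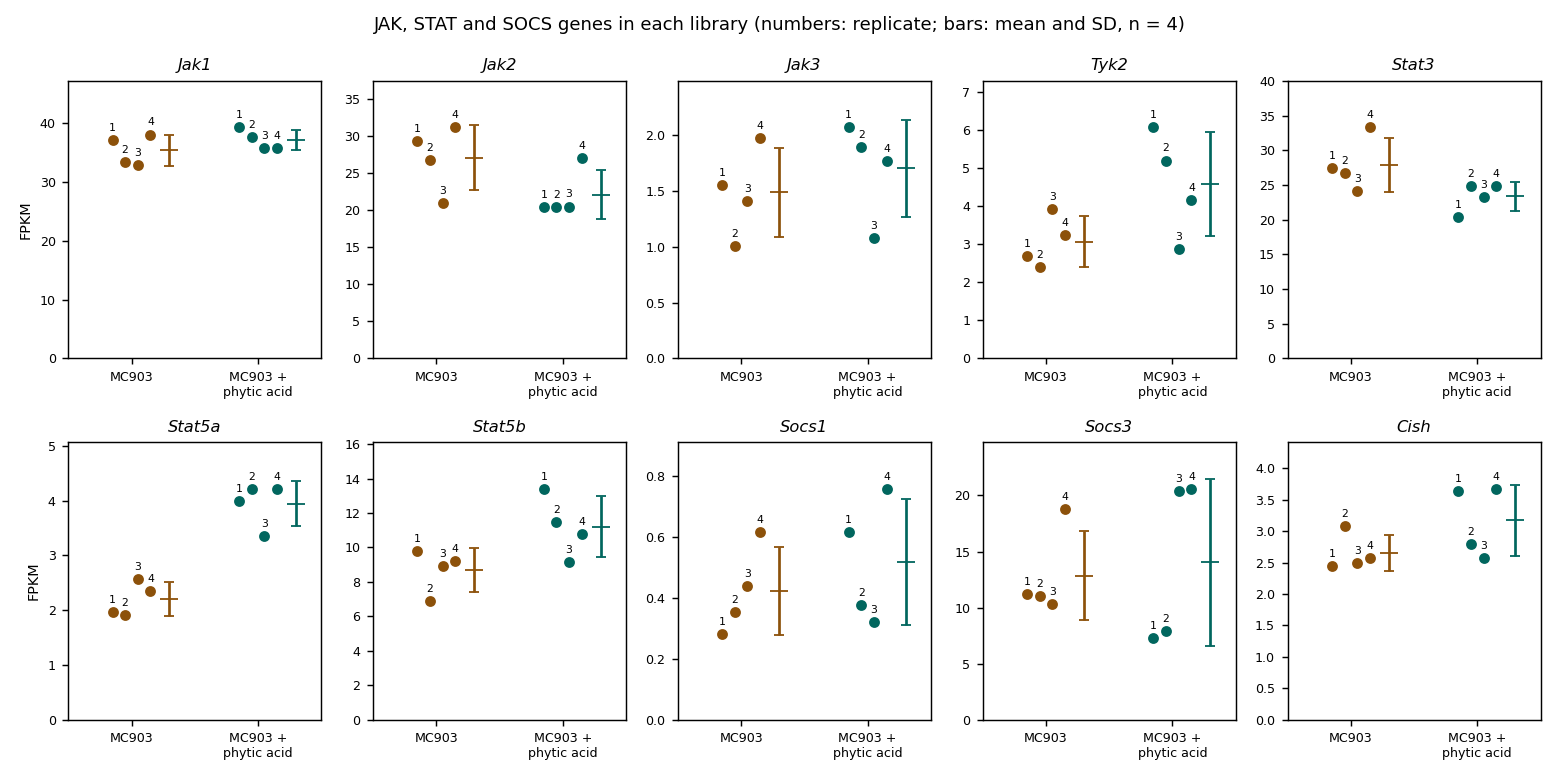
FPKM (vertical axis, from 0) of each of the 10 genes in 4 MC903 libraries (brown) and 4 MC903 plus phytic acid libraries (green). Points are libraries numbered by replicate, and bars give the mean and SD. The Stat5a groups are apart, at 1.92 to 2.57 and 3.35 to 4.22 FPKM, while Socs3 is split within each group.

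The Janus kinase genes kept distinct levels. Jak1, whose product serves most cytokine receptor classes, was the most abundant of the 10 genes. In replicate order 1 to 4, used throughout, its MC903 libraries held 37.1, 33.3, 33.0 and 38.1 FPKM and the phytic acid libraries 39.3, 37.6, 35.8 and 35.7. These ranges overlapped closely, and the log2 fold change was 0.07 ± 0.09 (SE), with a 95% interval of -0.12 to 0.26 (limma adjusted p = 0.593). Jak2, the kinase of the growth hormone, prolactin and granulocyte-macrophage factor receptors, stood at 29.3, 26.7, 21.0 and 31.1 with MC903 and at 20.4, 20.4, 20.5 and 27.0 with phytic acid. Phytic acid replicates 1 to 3 lay below every MC903 library and replicate 4 lay among them. Its log2 fold change was -0.28 ± 0.14, with an interval of -0.59 to 0.04 (adjusted p = 0.179). Without MC903 replicate 3, the lowest of its group, Jak2 was called lower (-0.39, adjusted p = 0.0374).

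Tyk2, which pairs with type I interferon, interleukin 12 and interleukin 10 receptors, stood at 2.70, 2.40, 3.94 and 3.25 FPKM with MC903 and at 6.08, 5.21, 2.88 and 4.18 with phytic acid. The highest 3 values were phytic acid libraries, but replicate 3 of that group was within the MC903 range. The log2 fold change of 0.44 ± 0.19 (SE) had an interval of 0.0037 to 0.87 and did not pass (unadjusted p = 0.0484, adjusted p = 0.127). Without phytic acid replicate 3, Tyk2 was called higher (0.60, adjusted p = 0.0303). Jak3, a kinase of blood cells that binds the common gamma chain, was low, at 1.56, 1.01, 1.41 and 1.98 with MC903 and 2.07, 1.90, 1.08 and 1.77 with phytic acid. Its log2 fold change was 0.12 ± 0.16, with an interval of -0.24 to 0.48 (adjusted p = 0.624). The leukocyte gene Ptprc (CD45) rose in the same libraries, from 3.34 ± 0.374 FPKM (SD, n = 4) to 8.28 ± 3.09 (adjusted p = 0.0106).

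Among the STAT genes described, Stat5a rose and the others tested were not called. Stat5a, a mediator of signals from interleukin 2, interleukin 7, thymic stromal lymphopoietin, growth hormone and prolactin receptors, stood at 1.97, 1.92, 2.57 and 2.34 FPKM with MC903. With phytic acid it stood at 3.99, 4.22, 3.35 and 4.22, so that every phytic acid library was above every MC903 library. The mean went from 2.20 ± 0.310 (SD, n = 4) to 3.94 ± 0.410, which is 1.79-fold, and the log2 fold change was 0.63 ± 0.11 (SE), with an interval of 0.38 to 0.87 (adjusted p = 0.00376). With a pseudocount of 0.01 in place of 1 it was 0.84. Stat5a was called in each of the 19 alternatives that tested it, with adjusted p from 4.1e-04 to 0.0272.

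Stat5b, the close relative of Stat5a with largely shared functions, was higher in level. It stood at 9.77, 6.88, 8.91 and 9.21 FPKM with MC903 and at 13.4, 11.5, 9.13 and 10.8 with phytic acid, and the groups overlapped through phytic acid replicate 3. The log2 fold change of 0.33 ± 0.14 (SE), with an interval of 0.03 to 0.63, did not pass after adjustment (unadjusted p = 0.0360, adjusted p = 0.102). Stat3, which carries signals of interleukin 6, oncostatin M, interleukin 22 and interleukin 10, stood at 27.5, 26.7, 24.1 and 33.3 with MC903 and at 20.4, 24.9, 23.2 and 24.9 with phytic acid. Its mean was lower with phytic acid, but phytic acid replicates 2 and 4 lay above MC903 replicate 3. The log2 fold change was -0.24 ± 0.11, with an interval of -0.50 to 0.02 (adjusted p = 0.154).

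Stat5b, Stat5a and Stat3 are neighbours on chromosome 11 of GRCm38, at chr11:100780731-100850724, chr11:100859351-100885169 and chr11:100885098-100939540. Stat5b and Stat5a are 8626 bases apart, and the ends of Stat5a and Stat3, which are transcribed towards each other, overlap by 72 bases. All 10 genes are protein-coding. The other members lie at chr4:101152367-101265282 (Jak1), chr19:29251828-29313080 (Jak2), chr8:71676296-71690575 (Jak3), chr9:21104068-21131243 (Tyk2), chr16:10782240-10785536 (Socs1), chr11:117966079-117970047 (Socs3) and chr9:107296026-107302784 (Cish). GENCODE has genes on the opposite strand over Tyk2 (1700084C06Rik, 24326 bases) and over Cish (the pseudogene Gm17040, and Gm17041). Insl3, at a mean of 0.277 FPKM, overlaps Jak3 by 1362 bases on the same strand, where a strand setting would not separate them. The values are sums over exons. The sources used here do not name a strand setting, so reads from such overlaps could be counted for either gene. Of the distinct 100-base words in Stat5a transcripts, 3.44% also occur in Stat5b, and of those in Stat5b 4.79% occur in Stat5a. At 50 bases these shares were 8.21% and 11.0%, so reads that fall there could have been split between the pair.

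Of the other STAT genes, Stat6 and Stat2 did not pass the test. Stat6, the factor of interleukin 4 and interleukin 13, had the highest mean of the 6 STAT genes described, although Stat3 was above it in phytic acid replicates 2 and 3. It went from 31.3 ± 2.85 FPKM (SD, n = 4) to 25.2 ± 4.17, a log2 fold change of -0.31 ± 0.13 (SE, adjusted p = 0.102). It was called lower without phytic acid replicate 1 (-0.40), with median-of-ratios scaling (-0.36) and with library weights (-0.35). Stat2, a factor of type I interferon signalling, stood at 5.78 ± 3.02 FPKM (SD, n = 4) with MC903 and at 7.82 ± 1.63 with phytic acid (adjusted p = 0.246). It was called higher without MC903 replicate 4 (0.72). Stat4 was below 0.25 FPKM in every library and was not tested. The plot of changes within the families shows Stat5a and Socs7 as the genes called.

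**Figure D2:**
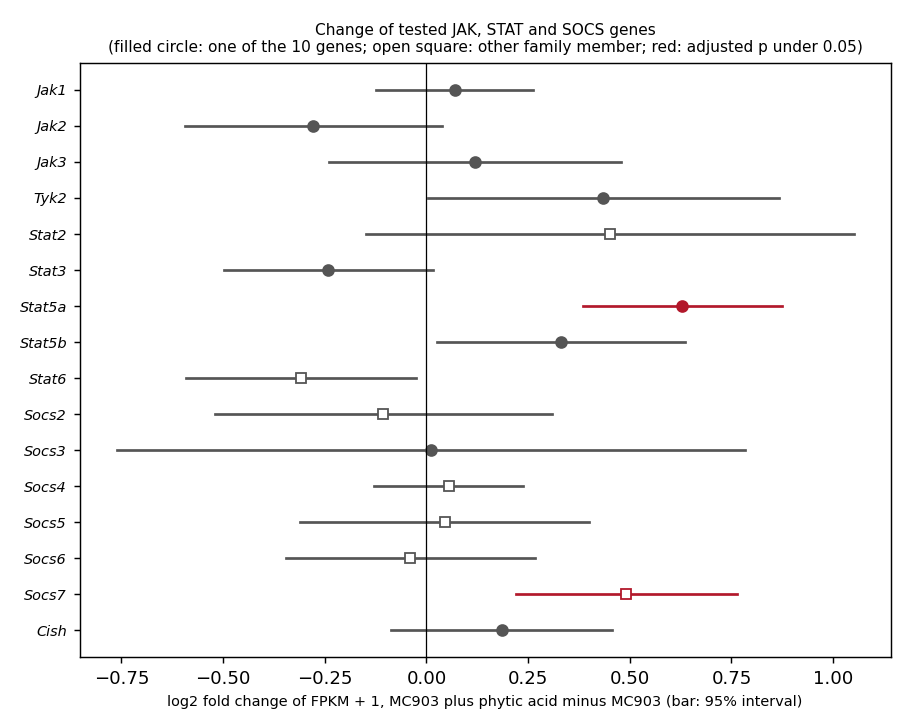
Log2 fold change of FPKM + 1 (horizontal axis, MC903 plus phytic acid minus MC903) of 16 tested JAK, STAT and SOCS genes, with 95% intervals from limma. Stat5a (0.63) and Socs7 (0.49) are drawn in red as called, and the other 14 genes are grey.

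Ratios between STAT transcripts within a library do not depend on how libraries are scaled, and those that hold Stat5a differed between the groups. Stat5a, already called, enters each ratio given here, so its rise is part of what they show. These ratios were chosen after the values were seen and are given without a test. The Stat3 to Stat5a ratio of FPKM was 14.0, 13.9, 9.39 and 14.2 with MC903 and 5.12, 5.91, 6.94 and 5.90 with phytic acid. The ratio of Stat3 to the sum of Stat5a and Stat5b was 2.34, 3.03, 2.10 and 2.88 with MC903 and 1.17, 1.59, 1.86 and 1.66 with phytic acid. Neither ratio overlapped between the groups. Stat5b exceeded Stat5a in all libraries, by 3.47 to 4.96 times with MC903 and 2.56 to 3.36 times with phytic acid.

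As shares of the summed FPKM of 6 STAT genes (Stat2, Stat3, Stat4, Stat5a, Stat5b and Stat6), Stat5a made up 2.57% to 3.68% with MC903 and 5.18% to 5.71% with phytic acid, and Stat5b 10.03% to 12.8% and 14.4% to 17.4%. Stat3 made up 34.6% to 38.9% and 26.6% to 37.6%, and Stat6 38.2% to 43.6% and 32.7% to 39.7%. For both genes these ranges overlapped. The sum itself was 76.0 ± 9.47 FPKM (SD, n = 4) with MC903 and 71.8 ± 6.82 with phytic acid. Of the 4 kinase genes, Jak1 made up 52.9% ± 1.88 and 56.8% ± 3.27 of the summed FPKM and Jak2 40.2% ± 3.22 and 33.7% ± 4.11. Their sum was 67.0 ± 6.84 FPKM and 65.5 ± 3.82.

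**Figure D3:**
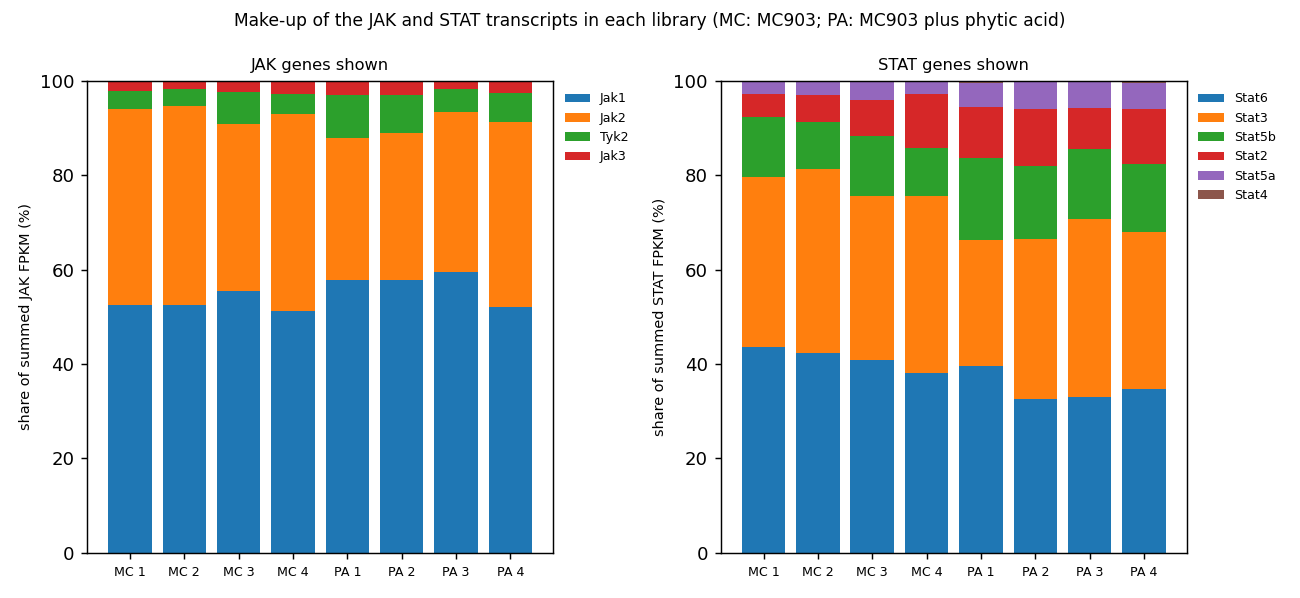
Share of the summed FPKM of 4 JAK genes (left) and 6 STAT genes (right) taken by each gene, in percent, in the 4 MC903 (MC) and 4 MC903 plus phytic acid (PA) libraries. The Stat5a share lies between 2.57% and 3.68% with MC903 and between 5.18% and 5.71% with phytic acid.

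The feedback genes among the 10 were not called. Cish, a known direct target of STAT5 that binds activated receptors, stood at 2.45, 3.08, 2.50 and 2.57 FPKM with MC903 and at 3.64, 2.79, 2.58 and 3.67 with phytic acid. Phytic acid replicates 1 and 4 were above all MC903 libraries and replicates 2 and 3 were within their range. The log2 fold change was 0.18 ± 0.12 (SE), with an interval of -0.09 to 0.46 (adjusted p = 0.292). Relative to Stat5a, Cish stood at 0.974 to 1.61 with MC903 and at 0.663 to 0.912 with phytic acid. Socs1, an inhibitor of interferon and interleukin 4 signalling, was below 1 FPKM in all libraries, at 0.282, 0.354, 0.439 and 0.616 with MC903 and 0.616, 0.377, 0.320 and 0.759 with phytic acid. Its 26 to 90 reads per library did not show a difference, and without a filter its adjusted p was 0.621.

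Socs3, the inhibitor of gp130 receptors and a known STAT3 target, was split within both groups. It stood at 11.2, 11.0, 10.4 and 18.8 FPKM with MC903 and at 7.31, 7.88, 20.4 and 20.6 with phytic acid. The phytic acid libraries thus held both the lowest and the highest values of the series. The log2 fold change was 0.010 ± 0.34 (SE), and its interval of -0.76 to 0.78 left room for a change in either direction (adjusted p = 0.986). Its sign turned, to -0.039 with median-of-ratios scaling and -0.019 with quantile normalization. Without phytic acid replicate 1 it was 0.25 and without replicate 4 it was -0.21.

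The 3 libraries of high Socs3 (MC903 replicate 4, phytic acid replicates 3 and 4) were also the 3 of highest Il6 and Osm, the genes of the gp130 ligands interleukin 6 and oncostatin M. This was noticed after the values were seen. Il6 stood at 2.61, 1.89 and 1.92 FPKM in those libraries and at 0.243 to 1.40 in the others. Osm stood at 3.20, 2.21 and 1.93 in those libraries and at 0.299 to 1.17 in the others. Neither cytokine gene was called between the groups (adjusted p = 0.712 and 0.786). Summed markers of neutrophils were 746, 139 and 163 FPKM in those 3 libraries, 15.7 and 19.5 in phytic acid replicates 1 and 2, and 121 to 238 in MC903 replicates 1 to 3. Of these 7 markers, 2 were called lower and 0 higher, against 11.6% and 14.2% of all genes tested. Ly6g was at 0 in 6 of the 8 libraries. Their part in the Socs3 values was not tested.

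**Figure D4:**
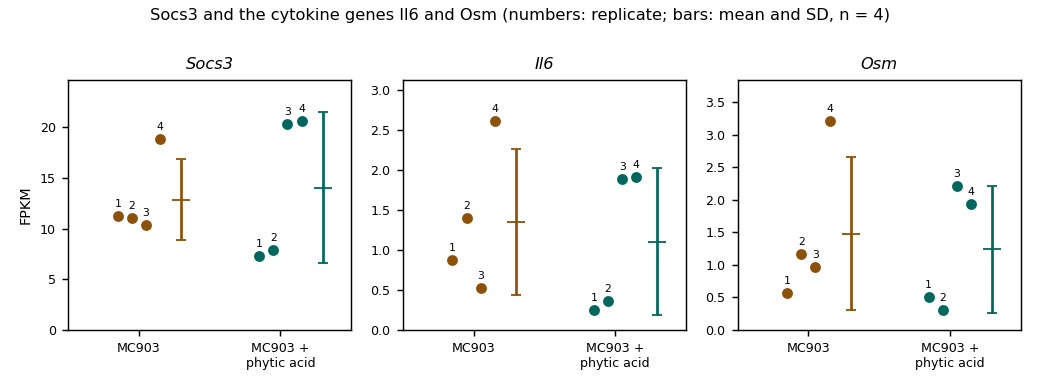
FPKM (vertical axes, from 0) of Socs3, Il6 and Osm in each library, numbered by replicate, with the mean and SD of each group of 4. MC903 replicate 4 and phytic acid replicates 3 and 4 are the highest in each panel, at 18.8 to 20.6 FPKM for Socs3.

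Of the other SOCS genes, Socs7 rose and 4 were not called. Socs7 stood at 3.73, 4.0, 4.72 and 3.85 FPKM with MC903 and at 7.28, 6.78, 5.22 and 5.42 with phytic acid, with no overlap, and its log2 fold change was 0.49 ± 0.12 (SE, adjusted p = 0.0169). The call was lost without MC903 replicate 1 (adjusted p = 0.0551). Socs2, another STAT5 target, was at 3.04 ± 0.890 FPKM (SD, n = 4) with MC903 and 2.73 ± 0.647 with phytic acid (log2 fold change -0.11 ± 0.18, SE). Socs4 (0.05 ± 0.08), Socs5 (0.04 ± 0.16) and Socs6 (-0.04 ± 0.14) lay near 0, and the sign of Socs5 turned with median-of-ratios and quantile scaling.

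Ordered by mean FPKM over all 8 libraries, the 10 genes ran Jak1 (36.3), Stat3 (25.6), Jak2 (24.6), Socs3 (13.4), Stat5b (9.95), Tyk2 (3.83), Stat5a (3.07), Cish (2.91), Jak3 (1.60) and Socs1 (0.470). Stat3 was above Jak2 in 5 of 8 libraries, Socs3 above Stat5b in 6, Tyk2 above Stat5a in 6 and Stat5a above Cish in 5, so these neighbours were not separated within their spread. The ranges did not overlap between Stat5b and Tyk2, between Cish and Jak3, or between Jak3 and Socs1. Jak1 was above Stat3 and Jak2 above Socs3 in all 8 libraries.

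The cytokine genes upstream mostly lay below the filter. Of 32 listed ligand genes, 10 were tested, 3 fell and 1 rose, and their median log2 fold change was -0.18. By comparison, 11.6% of all genes tested were called lower and 14.2% higher. Whether the 10 ligand genes depart from these shares was not tested. Tslp, which encodes thymic stromal lymphopoietin, stood at 1107, 1203, 349 and 401 FPKM with MC903 and at 5.07, 31.1, 37.9 and 9.38 with phytic acid, and fell by 5.30 on the log2 scale (SE 0.64, adjusted p = 7.7e-04). Clcf1, a ligand of the ciliary neurotrophic factor receptor, fell from 3.72 ± 1.78 (SD, n = 4) to 1.23 ± 0.368 (adjusted p = 0.0167), and Il24 was the other called lower. Il15, which signals through the interleukin 2 receptor beta chain and Jak3, rose from 2.30 ± 0.241 to 5.18 ± 0.651 (log2 fold change 0.90 ± 0.11, SE, adjusted p = 7.6e-04).

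In the main limma fit, the receptor lists included calls in the higher direction in all 4 lists and none in the lower direction. Il4ra and Cntfr, described below, were called lower in some alternative fits, and a lower call was not open to Il12rb2. Not every listed gene feeds the kinases, since Il22ra2 encodes a soluble receptor. Over all genes tested, 14.2% were called higher and 11.6% lower. Of 9 tested genes of the common gamma chain, type 2 and thymic stromal lymphopoietin receptors, 4 rose, with a median of 0.33. Il7r, a chain of the receptors for interleukin 7 and for thymic stromal lymphopoietin, stood at 4.01, 4.24, 4.42 and 4.06 FPKM with MC903 and at 7.78, 8.84, 5.50 and 10.5 with phytic acid (log2 fold change 0.79 ± 0.16, SE, adjusted p = 0.00713). The other chain for thymic stromal lymphopoietin, Crlf2, was at 3.67 ± 0.848 (SD, n = 4) and 2.95 ± 0.687 (adjusted p = 0.325). Il2rb rose from 1.16 ± 0.328 to 2.93 ± 0.974, Il15ra from 5.59 ± 0.572 to 7.28 ± 0.467, and Il2ra was the fourth called. Il4ra, the shared chain for interleukin 4 and interleukin 13, was at 19.1 ± 7.10 and 11.5 ± 3.27 and did not pass (-0.67 ± 0.24, SE, adjusted p = 0.0638). It was called lower without MC903 replicate 3 (-0.77) or phytic acid replicate 4 (-0.84). Il2rg, the common gamma chain, was at 2.93 ± 0.353 and 4.12 ± 1.43 (adjusted p = 0.215). In this list 2 genes were called higher when MC903 replicate 1 or 2, or replicate 1, 2 or 4 of phytic acid, was left out, and the call of Il15ra was lost in the same 5 cases.

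Of 8 tested beta common and homodimeric receptor genes, 3 rose: Prlr (prolactin receptor), from 2.71 ± 0.449 FPKM (SD, n = 4) to 4.39 ± 0.534, Csf2ra (granulocyte-macrophage factor receptor), from 4.42 ± 1.06 to 8.27 ± 2.07, and Ghr (growth hormone receptor), from 16.2 ± 1.14 to 20.5 ± 2.07. The median was 0.17. When MC903 replicate 2, or replicate 1 or 4 of phytic acid, was left out, 1 was called higher and the call of Csf2ra was lost. Ghr was called in 1 of the 8 fits that left out a library, the one without phytic acid replicate 2. Among gp130 and interleukin 12 family receptors, 3 of 8 rose, with a median of 0.50. Il6ra (interleukin 6 receptor alpha) stood at 7.86, 8.24, 10.8 and 6.78 with MC903 and at 15.9, 23.0, 19.9 and 16.3 with phytic acid, a log2 fold change of 1.07 ± 0.16 (SE, adjusted p = 0.00167). Il12rb2 rose from 0.356 ± 0.261 to 2.03 ± 0.313 (adjusted p = 0.00102). It passed the filter only through the phytic acid libraries, where it was higher, so a call in the lower direction was not open to it. Lifr rose from 11.5 ± 1.61 to 17.6 ± 4.57 (adjusted p = 0.0398), a call kept in 1 of the 8 fits that left out a library, the one without phytic acid replicate 1. Cntfr, the ciliary neurotrophic factor receptor gene, named after its values were seen, was at 1.59, 1.48, 6.84 and 2.16 with MC903 and 0.750, 1.07, 0.652 and 0.881 with phytic acid and did not pass (-0.96 ± 0.32, SE, adjusted p = 0.0557). Without MC903 replicate 3 it was called lower (-0.57, adjusted p = 0.00997), as it was with pseudocounts of 0.1 and 0.01, median-of-ratios and quantile scaling, library weights and voom. The gp130 gene itself, Il6st, was at 33.4 ± 3.21 and 38.1 ± 1.54 (adjusted p = 0.171), and the oncostatin M receptor gene Osmr at 9.01 ± 1.31 and 7.59 ± 0.365 (adjusted p = 0.172).

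Interferon and interleukin 10 family receptors had the most calls of the receptor lists, with 7 of 11 higher, 0 lower and a median of 0.51. Il22ra2, which encodes a soluble receptor that binds interleukin 22, stood at 1.79, 4.47, 5.36 and 0.974 FPKM with MC903 and at 10.9, 25.6, 45.4 and 20.6 with phytic acid (log2 fold change 2.67 ± 0.46, SE, adjusted p = 0.00349). Il20rb, a chain for interleukin 19, 20 and 24, rose from 15.1 ± 5.65 (SD, n = 4) to 48.2 ± 5.70 (1.67 ± 0.21, adjusted p = 9.3e-04). Ifngr1, the ligand-binding chain for interferon gamma, rose from 48.0 ± 3.51 to 82.1 ± 15.8 (0.74 ± 0.15, adjusted p = 0.00699). With any 1 library left out, 5 to 7 of the 11 were called. The plot of the pathway by role sets these lists beside the 10 genes.

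**Figure D5:**
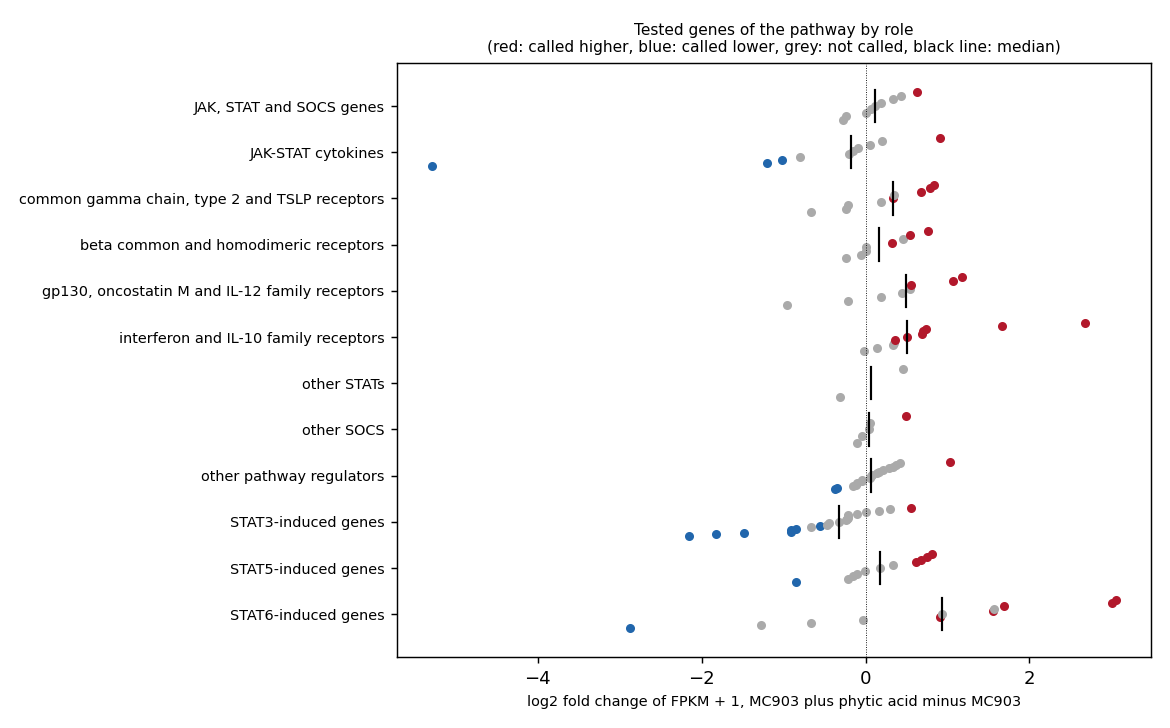
Log2 fold change of FPKM + 1 (horizontal axis) of each tested gene, grouped by role in the pathway, with called genes in red (higher) or blue (lower), others in grey and the median of each group as a black line. The 9 tested members of the 10 genes lie between -0.28 and 0.63 with 1 call, while 7 of 11 interferon and interleukin 10 family receptor genes are red.

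Among 18 other regulators, 1 rose and 2 fell, and the median was 0.07. The 16.7% called was below the 25.8% over all genes tested. Ptprc, a receptor phosphatase of leukocytes that acts on Janus kinases, rose (log2 fold change 1.03 ± 0.23, SE). Ptpn1, the phosphatase PTP1B that acts on Jak2 and Tyk2, fell from 18.5 ± 1.59 FPKM (SD, n = 4) to 14.3 ± 1.16 (-0.35 ± 0.10, SE, adjusted p = 0.0241), and the adaptor gene Stam2 from 17.0 ± 1.91 to 12.8 ± 0.429 (-0.37 ± 0.10, SE, adjusted p = 0.0206). When MC903 replicate 1 or 4, or replicate 1 of phytic acid, was left out, both of the lower calls were lost, and 1 was lost without MC903 replicate 2 or phytic acid replicate 3. Leaving out replicate 3 or 4 of either group gave 2 called higher.

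Genes known to be induced by STAT3 were called lower in 7 of 21 tested and higher in 1, and the median log2 fold change was -0.33. The share called was 38.1%, against 25.8% over all genes tested. The lists of induced genes come from general knowledge and were chosen with earlier results of these data known, so the shares called are descriptions. They share members with each other and with the receptor lists. Hif1a, the hypoxia factor, fell from 91.7 ± 29.7 FPKM (SD, n = 4) to 24.1 ± 4.16 (-1.82 ± 0.25, SE, adjusted p = 0.00140), Myc from 28.5 ± 4.51 to 14.6 ± 2.03 (-0.91 ± 0.14, adjusted p = 0.00191) and Junb from 84.9 ± 19.1 to 46.0 ± 17.7 (-0.91 ± 0.26, adjusted p = 0.0288). Ccnd1, Saa3, Bcl3 and Lcn2 were also called lower and Batf higher. The lower count was 2 to 4 when MC903 replicate 1, 2 or 4, or replicate 1, 2 or 3 of phytic acid, was left out, and the call of Junb was lost in the same 6 cases. The higher call was lost when MC903 replicate 2, or replicate 1 or 4 of phytic acid, was left out. Neutrophil markers were called lower in 2 of 6 tested in the same comparison, and the part of these cells was not tested.

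Genes listed here as induced by STAT5 were called higher in 4 of 11 tested and lower in 1 (45.5% called, against 25.8% over all genes tested), with a median of 0.18. Igf1 rose from 5.85 ± 0.304 FPKM (SD, n = 4) to 11.3 ± 3.10 (0.81 ± 0.17, SE, adjusted p = 0.00803), Tnfrsf13b, a receptor of B cell factors, from 1.38 ± 0.330 to 2.64 ± 0.569 (0.61 ± 0.14, adjusted p = 0.0128), and the repressor gene Bcl6 from 9.08 ± 2.76 to 15.8 ± 3.50 (0.75 ± 0.20, adjusted p = 0.0237). Il2ra was the other called higher and the cyclin gene Ccnd1 was called lower. Socs2, also in this list, was not called (log2 fold change -0.11), nor was Cish, which is not in the list (adjusted p = 0.292). Bcl6 is better known as a gene that STAT5 represses in lymphocytes, so the counts of this list do not measure STAT5 activity. Whether STAT5 raises each listed gene in skin was not tested. The higher count was 2 when MC903 replicate 1, 2 or 4, or replicate 1 or 2 of phytic acid, was left out, and the call of Bcl6 was lost in those 5 cases. That of Ccnd1 was lost when replicate 4 of MC903, or replicate 2, 3 or 4 of phytic acid, was left out.

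Genes known to be induced by STAT6 were called higher in 5 of 11 tested and lower in 1 (54.5% called, against the same 25.8%), with a median of 0.94. The chemokine gene Ccl17 rose from 3.84 ± 2.02 FPKM (SD, n = 4) to 38.6 ± 17.2 (log2 fold change 3.06 ± 0.36, SE, adjusted p = 6.9e-04). Another, Ccl22, rose from 2.04 ± 0.591 to 8.08 ± 2.35 (1.56 ± 0.20, SE, adjusted p = 0.00101). Retnla, Alox15 and Pdcd1lg2 were also called higher. Arg1 (arginase 1) fell from 80.8 ± 31.7 to 10.4 ± 5.57 (-2.88 ± 0.41, adjusted p = 0.00160). Without MC903 replicate 4, 3 were called higher, and without MC903 replicate 3 or phytic acid replicate 4, 2 were called lower. Langerhans and dendritic cell markers, known sources of both chemokines, had summed levels of 93.7 to 237 FPKM with MC903 and 414 to 852 with phytic acid, and their part in these values was not tested.

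The genes whose pattern over the 8 libraries was most like that of Stat5a, among tested genes other than predicted ones, were Ccdc69 (Pearson r = 0.987), Sbk2 (0.987) and Mtfr1l (0.986). For Tyk2 they were Sema6c (0.993), B4galt6 (0.988) and Zfp217 (0.984), and for Stat5b Card10 (0.990), Prkd1 (0.979) and Arhgap26 (0.966). These values are descriptions on the log2(FPKM + 1) scale, and for Stat5a the gap between the groups enters them. Of the 9 tested members, Stat5b was nearest to Tyk2 (0.873) and Tyk2 nearest to Stat5a (0.804). Many other genes were nearer, as Stat5b had rank 604 for Tyk2 and Tyk2 rank 1820 for Stat5a.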

How the data were processed

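Per the labels' protocols, TRIzol and a SMARTER kit for mRNA were used. The authors deposited FPKM values. Among the tools that the submitters' processing notes list, without roles, are cutadapt, HISAT2, TopHat2, DESeq, and the build is mm10. No source used here names the annotation, counter or strand setting. FPKM depends on the library total, so a few abundant genes can shift the rest. The 51 rows lacking a name, at most 0.0238% of any library's summed FPKM, were dropped. For 21 repeated names the row of highest mean was kept. FPKM times GENCODE M21 exon length gave whole numbers (within 0.05) in all libraries for 97.4% of 17980 genes. The fit was limma 3.58.1 in R 4.3.3 with group as the single factor (lmFit, eBayes with trend), two-sided, tested on simulated data. The members and lists were chosen with earlier results of these data known. Named were the members, the other STAT and SOCS genes, 6 receptor genes and Tslp, up to 3 called genes of smallest p per list (2 where none was called), and the 3 genes most like each of the 3 members of smallest p. One result is not reported here. Others were named after their values were seen. Alternatives were pseudocounts 0.1 and 0.01, no filter, a mean of at least 5 FPKM, TPM, median-of-ratios and quantile scaling, centring on 8 basal keratinocyte markers, library weights, no trend, the replicate block, limma voom on recovered reads and leaving out each library.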

Additional observations from a re-analysis of the deposited data

Results flagged for a closer look

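In 8 of 100 sets of 4 values (50 named genes in the 2 groups), 1 library stood apart from the other 3 by Dixon's criterion at the 95% level, where chance gives about 1 in 20. Phytic acid replicate 4 stood apart for Jak2, at 27.0 FPKM against 20.4 to 20.5 in the others. MC903 replicate 4 stood apart for Socs3 (18.8 against 10.4 to 11.2) and for Il4ra (29.7 against 14.5 to 16.4). Phytic acid replicate 3 was low for Stat2 (5.39 against 8.33 to 8.87) and high for Stam2 (13.5 against 12.6). Phytic acid replicate 1 was low for Ifngr1, at 58.5 against 89.0 to 91.0. MC903 replicate 1 was high for Tnfrsf13b (1.87 against 1.19 to 1.24) and MC903 replicate 3 for Bcl6 (13.2 against 7.54 to 7.78).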

How the results depend on the processing

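Of 12165 genes, 3134 were called, 4796 with library weights and 2013 to 3979 with 1 library left out, the lowest without MC903 replicate 1. Of the 10 signalling genes, 1 was called higher and 0 lower. With library weights these were 2 and 1, and with 1 library left out 1 to 2 and 0 to 1. With a mean of at least 5 FPKM, 0 were called higher, since Stat5a was then not tested. Socs3 (0.010) changed sign with median-of-ratios (-0.039) and quantile scaling (-0.019) and ran from -0.21 to 0.25 with 1 library left out. Socs5 changed sign with the same scalings (-0.0030 and -0.0016) and ran from -0.042 to 0.15, Socs6 from -0.16 to 0.019 and Socs2 from -0.23 to 0.016. The cause was not tested.

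Same-numbered replicates did not deviate together (correlations of -0.28, -0.10, -0.29 and 0.23), and 1 of 4 MC903 libraries correlated best with its own number. The labels used here do not say whether samples are paired. This check cannot exclude a pairing, since deviations within a group of 4 depend on each other. With the replicate block, 2046 genes were called and Stat5a kept its call (adjusted p = 0.0272). Of the named genes, Socs7 lost its call (adjusted p = 0.0646), as did Il2rb, Il15ra, Ghr, Lifr, Stam2 and Ptpn1 (0.0534 to 0.120), and Il4ra gained one (-0.67, adjusted p = 0.0108).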

Other observations

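Of the 32 cytokine genes listed, 22 were below the filter. Among the 10 tested, Il6 (1.35 ± 0.913 FPKM with MC903 and 1.10 ± 0.925 with phytic acid, SD, n = 4), Osm (1.48 ± 1.18 and 1.23 ± 0.976) and Il10 (1.18 and 1.06) were low in both groups. The receptor genes Il9r, Il21r, Il5ra, Il27ra, Il12rb1 and Il23r were below the filter too, so a change in them was not tested. Mast cell markers were called in 0 of 6 by limma, against 25.8% of all genes tested. Their sums were 149 to 239 FPKM with MC903 and 131 to 243 with phytic acid.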
